A study of Rattus norvegicus with 8 samples.

Results

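The genes described here encode voltage-gated and potassium ion channels, the membrane proteins that set the electrical state of excitable cells. They were taken by symbol from the array's annotation, as every gene whose name begins with Kcn, Cacna, Cacnb or Cacng, or with Scn or Hcn and a number. The array named 112 such genes on 158 probe sets, out of 10411 named genes in all. Of these, 47 had a mean signal of 100 or more over the 8 samples at their brightest probe set and were taken as measured, and 65 lay below that line. Among the members nearest to the line, Kcnj3 had a mean of 100.4 and Kcng3 of 101 just inside it, and Kcnd2 of 97.2 and Cacna2d3 of 93.0 just outside. The tissue was the adrenal gland of the rat pup, taken on postnatal day 7. In the hypoxic group, pups and dams had been kept in 12% O2 from birth, and in the normoxic group they had been kept in room air, with normoxic dams fed freely. Each group had 4 samples, each a pool of 24 glands frozen after the capsule had been stripped off and read on 1 array. Strain, sex and the spread of litters over the pools are not stated, so p-values measure the spread between these pools only.

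Potassium channels let potassium leave the cell and so hold the membrane at rest, while voltage-gated sodium and calcium channels open on depolarisation and carry the action potential and the calcium entry that releases hormone. In the adrenal medulla of the newborn, chromaffin cells sense low oxygen directly, before their nerve supply has matured: potassium currents fall, the cell depolarises, calcium enters and catecholamines are released. In the cortex, background potassium channels keep steroid-producing cells hyperpolarised, and calcium entry through low-voltage-activated and L-type channels drives aldosterone synthesis in the outer zone, which lies next to the capsule. The capsule had been removed here, so the outermost cortex may be thinly represented.

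No channel gene passed the test for a difference between hypoxic and normoxic glands. The test was limma on log2(signal + 16) across all 11106 probe sets above a brightness filter, with Benjamini-Hochberg adjustment. It covered 46 of the 47 measured genes, Kcnj3 falling below the filter with hypoxic pool 3 at 9.20. At an adjusted p under 0.05, 0 of the 46 were called, where 0.18% of all probe sets were, and the smallest adjusted p was 0.251, for Scn3b. At an unadjusted p under 0.05 in limma there were 5 of 46 (10.9%), beside 8.64% of all probe sets tested. Of these, 3 were higher (4.16% of all probe sets were) and 2 lower (4.48%) in hypoxic glands. In 3 of 46 (6.52%) the 4 hypoxic values lay wholly to 1 side of the 4 normoxic ones, beside 5.39% of all probe sets. Both shares are near the background, so neither sets the channel genes apart. In number, 29 were higher and 17 lower, with a median log2 difference of 0.06, where 45.2% of all probe sets were higher and their median was -0.02. The median of the channel genes turned to -0.02 without normoxic pool 1 and to -0.0059 without hypoxic pool 3.

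The differences were bounded as well as small. Their standard errors ran from 0.11 to 0.41 on the log2 scale, with a median of 0.18, and for 44 of 46 genes the 95% interval lay within 1 log2 unit of 0 on both sides. The exceptions were Cacng2 and Kcnc2, whose intervals reached -1.19 and -1.11. The observed differences ran from -0.55, for Kcnc2, to 0.39, for Scn3b. In whole glands, fewer cells of a type and less RNA per cell cannot be told apart. Levels of different genes are not compared, since probe sets differ in how strongly they bind their target.

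**Figure D1:**
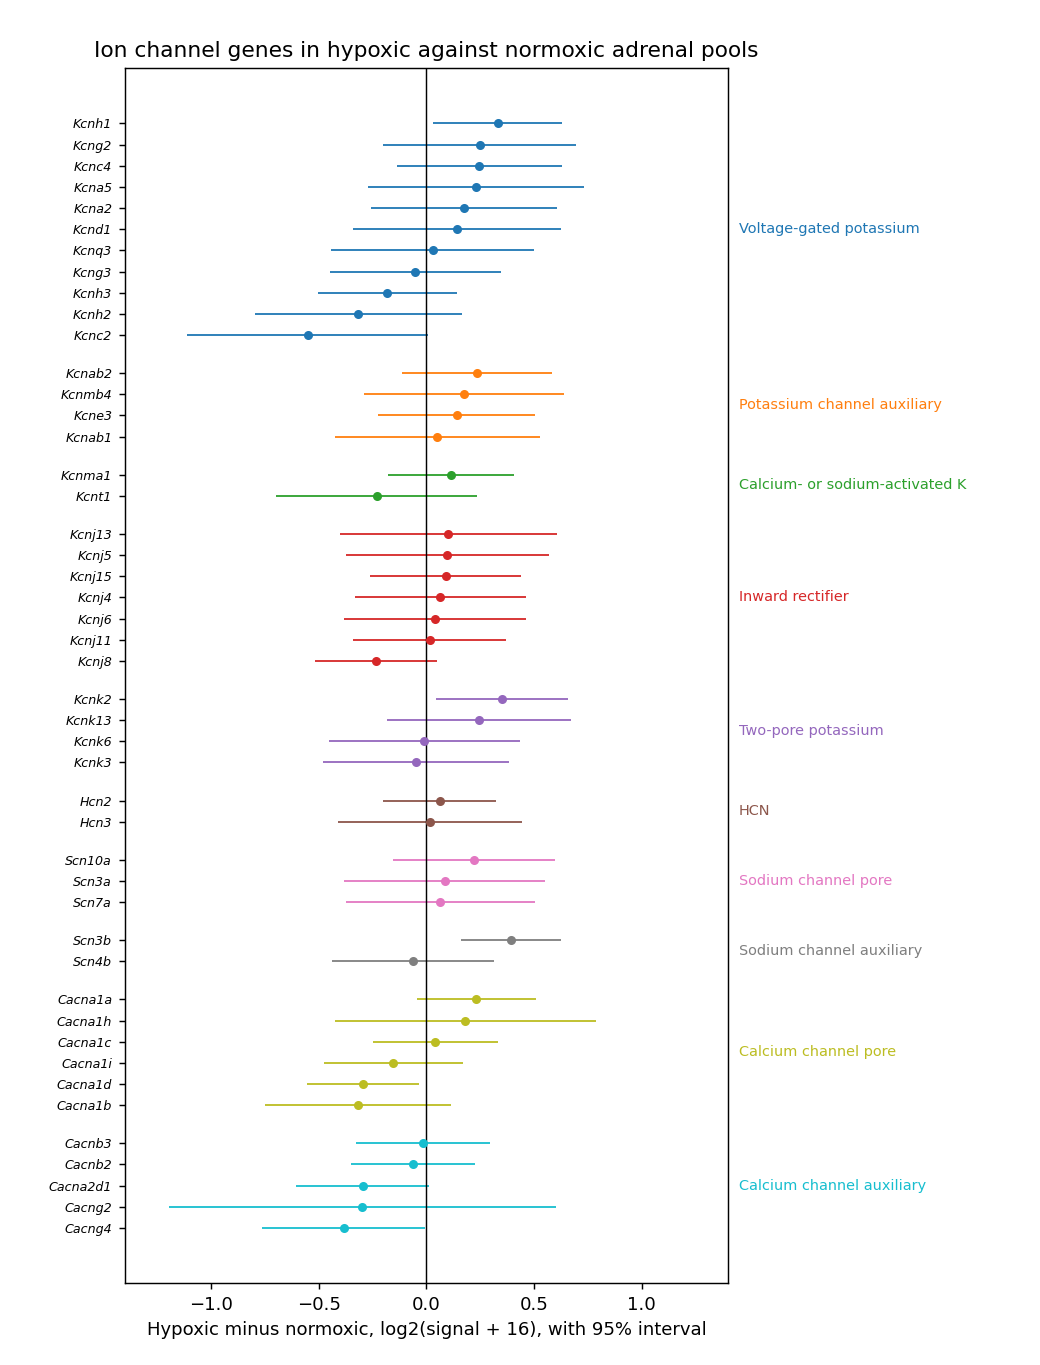
Log2 difference of hypoxic minus normoxic pools for the 46 tested channel genes, on the log2(signal + 16) scale, grouped by role; points are estimates from 4 against 4 pools and bars are 95% intervals from limma. Most bars cross 0, and the estimates run from -0.55 (Kcnc2) to 0.39 (Scn3b).

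Oxygen-sensitive potassium channels were followed as a list of 20 genes whose currents have been described as changing in low oxygen in chromaffin cells, carotid body, pulmonary artery muscle or expression systems. The array named 17 of them and 9 were measured. Among these 9, 6 were higher and 3 lower in hypoxic glands, with a median log2 difference of 0.12, and 0 passed limma over all probe sets while 1 of the 9 had an unadjusted p under 0.05, beside 8.64% of all probe sets. That gene was Kcnk2, which encodes a background potassium channel of the tandem-pore family opened by membrane stretch, polyunsaturated lipids and heat. The median was 0.01 without normoxic pool 4, and 0.07 over 10 genes with Kcnd2, which lay below the signal line but passed the brightness filter, 6 being higher and 4 lower.

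Kcnk2 read 329.7, 368, 252 and 277 in normoxic pools 1 to 4, and 392, 400.0, 336 and 447 in hypoxic pools 1 to 4. The groups overlapped, since normoxic pool 2 lay above hypoxic pool 3. The means were 307 ± 51.9 and 394 ± 45.6 (SD, n = 4 pools each). On the log2 scale hypoxic pools were higher by 0.35, standard error 0.14 (limma, adjusted p = 0.512), and this ran from 0.27 to 0.44 with 1 pool left out. It did not pass, and an exact permutation test of 4 against 4 gave a two-sided p of 0.0571. The smallest p that test can give is 0.0286.

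The bases before the start sites of Kcnk2 and Cacna1d, the oxygen-sensitive gene and the calcium channel pore gene with the lowest unadjusted p, are shown because hypoxia-inducible factors bind DNA at a core of ACGTG or GCGTG. Each window holds the 250 bases before a RefSeq start site on assembly GRCr8, 5′ to 3′ on the gene's strand, with any such core on either strand in capitals. RefSeq gives 2 start sites for Kcnk2 and 1 for Cacna1d, all on the minus strand. The Kcnk2 windows lie at chr13:103438643-103438892 and chr13:103494687-103494936, and the Cacna1d window at chr16:5527550-5527799.
Kcnk2 first window: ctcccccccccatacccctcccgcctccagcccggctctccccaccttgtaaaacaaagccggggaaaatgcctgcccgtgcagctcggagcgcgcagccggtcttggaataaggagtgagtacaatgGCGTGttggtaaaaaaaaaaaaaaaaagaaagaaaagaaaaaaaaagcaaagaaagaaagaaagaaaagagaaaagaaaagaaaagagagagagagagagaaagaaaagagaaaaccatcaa
Kcnk2 other window: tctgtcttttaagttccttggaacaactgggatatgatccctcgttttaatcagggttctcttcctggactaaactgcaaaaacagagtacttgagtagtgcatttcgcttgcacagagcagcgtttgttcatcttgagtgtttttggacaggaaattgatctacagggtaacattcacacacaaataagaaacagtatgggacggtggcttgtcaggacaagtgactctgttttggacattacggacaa
Cacna1d: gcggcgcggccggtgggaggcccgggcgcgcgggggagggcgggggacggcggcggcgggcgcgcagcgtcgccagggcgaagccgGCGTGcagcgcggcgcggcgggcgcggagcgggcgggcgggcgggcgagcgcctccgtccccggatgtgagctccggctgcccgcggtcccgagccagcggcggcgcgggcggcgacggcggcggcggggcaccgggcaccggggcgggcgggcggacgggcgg
The first Kcnk2 window holds 1 core, at position -122 from the start site, and the Cacna1d window holds 1, at -164, while the other Kcnk2 window holds none of these letters. Of 33469 windows of this length in the table, 36.7% hold a core. Among the tested channel genes, 34 of 46 had a window, and 20 of their 40 windows held a core, as did 2 of the 6 windows of oxygen-sensitive members. Some windows of the same gene overlap and share their cores, and by gene 18 of the 34 held a core. Whether the share differs from that of all windows was not tested. A match is a description of letters and shows no binding.

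Kcnk3 encodes another tandem-pore background channel, one closed by acid and known both in adrenal cortex and in oxygen-sensing cells. Its brightest probe set read 1267, 2143, 2235 and 2163 in normoxic pools 1 to 4. Hypoxic pools 1 to 4 read 1408, 2502, 1757 and 1858.5. In both groups pool 1 was the lowest, and the groups overlapped throughout. The means were 1952 ± 458 and 1881 ± 456 (n = 4 pools each), with a log2 difference of -0.05 and a 95% interval from -0.48 to 0.39 (limma, adjusted p = 0.971). The sign turned without any of 4 single pools, up to 0.08 without hypoxic pool 1.

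The other probe sets of Kcnk3 did not share 1 pattern across pools. The probe set 1398313_a_at read 206, 429, 916 and 793 in normoxic pools 1 to 4 and 70.8, 652, 807 and 789 in hypoxic pools 1 to 4, with a log2 difference well inside that spread ( -0.24, 95% interval -1.67 to 1.195; limma, adjusted p = 0.955). The dimmest, 1375807_at, ran from 133 to 214 with a log2 difference of 0.01. The beta-actin ratio, the signal of that transcript's 5' probe set over its 3' one, falls as RNA or its copy is shortened; it was 0.413, 0.597, 0.744 and 0.674 in normoxic pools 1 to 4. It was 0.249, 0.491, 0.713 and 0.528 in hypoxic pools 1 to 4. The pools with the lowest ratio, pool 1 of each group, were also those with the lowest signal at 1398313_a_at. Over the 8 pools, Pearson's r between log2 signal and log2 ratio was 0.93 (exact permutation p = 0.00399) and Spearman's rho was 0.93 (exact permutation p = 0.00223). This was 1 of 104 relations computed, of 52 probe sets with the beta-actin and Gapdh ratios, and the adjusted p was 0.208 for r and 0.158 for rho. Without the pools farthest from the median ratio, hypoxic pool 1 and normoxic pool 1, r was 0.42, so the relation rests on them. Of the 104 relations 10 had an unadjusted Pearson p under 0.05 and 0 passed adjustment. The smallest p was for Kcnt1 with the beta-actin ratio, at r = 0.88 and rho = 0.88 (exact permutation p = 0.00174 and 0.00724, adjusted p = 0.181 and 0.188), and r was 0.94 without the same pools. For Scn7a with that ratio r was -0.76 and rho -0.86 (exact permutation p = 0.0164 and 0.0107, adjusted p = 0.340 and 0.223), and r was -0.60 without them. Scn3b and Cacng4, both under 0.05 unadjusted in limma, were also among the 10. For Scn3b with the Gapdh ratio r was -0.76 and rho -0.64 (exact permutation p = 0.0301 and 0.0962, adjusted p = 0.447 and 0.667). Without normoxic pool 3 and hypoxic pool 3, farthest in that ratio, its r was -0.54. For Cacng4 with the beta-actin ratio r was 0.77 and rho 0.83 (exact permutation p = 0.0296 and 0.0154, adjusted p = 0.447 and 0.267). That r was 0.82 without pool 1 of each group. Kcnk2, Kcnh1 and Cacna1d had a Pearson p of 0.146 or more with either ratio (exact permutation). Without pool 1 of each group, however, their r with the beta-actin ratio was -0.86, -0.51 and 0.84. With the Gapdh ratio, without pool 3 of each group, it was -0.51, 0.09 and 0.11. These r of the remaining pools were not tested. Fitted together with the beta-actin ratio, an alternative added after the data were seen, the log2 difference of Kcnk3 was 0.61 at 1398313_a_at (limma, adjusted p = 0.333). It was 0.12 at the brightest probe set (adjusted p = 0.841).

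**Figure D2:**
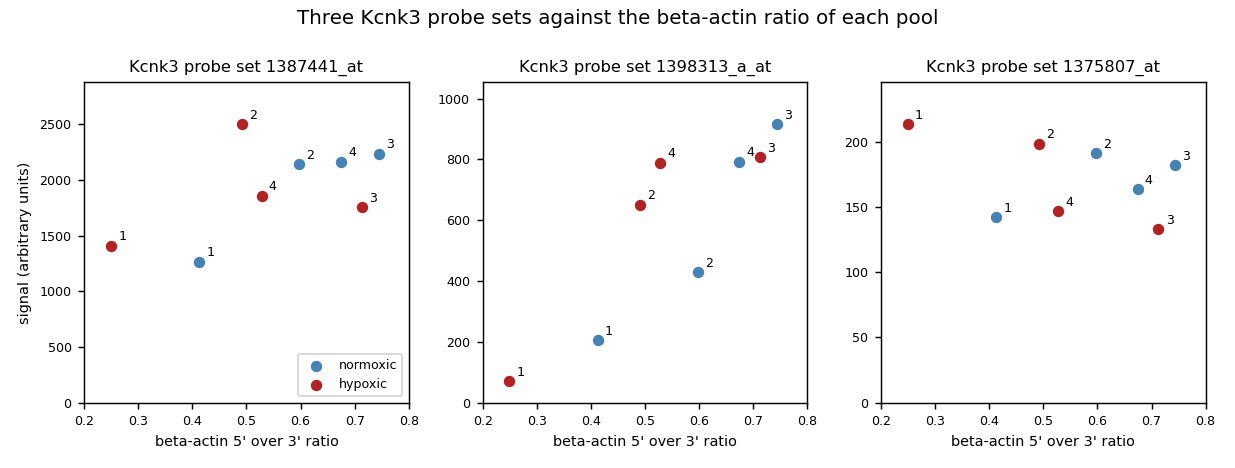
Signal in arbitrary units at each probe set of Kcnk3 (vertical axes, from 0) against the beta-actin 5' over 3' ratio of the same pool (horizontal axes, from 0.2); each point is a pool, numbered by replicate, blue for normoxic and red for hypoxic. At 1398313_a_at pool 1 of each group, with ratios of 0.413 and 0.249, gave the lowest signals (206 and 70.8), and at 1375807_at the order of pools differs.

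The other oxygen-sensitive members gave small differences in either direction. Kcnma1, the pore of the large-conductance calcium-activated potassium channel that shapes the chromaffin action potential, read from 211 to 284 in normoxic and from 227 to 284 in hypoxic pools, and the log2 difference was 0.12 (95% interval -0.18 to 0.41), or 0.055 without normoxic pool 3. Kcnh2, a voltage-gated channel of the ether-a-go-go family, read 229, 212, 165 and 246 in normoxic pools and 103, 152, 228.5 and 211 in hypoxic pools, with hypoxic pools 1 and 2 below every normoxic pool. Its log2 difference was -0.32, with an interval from -0.80 to 0.16 (limma, adjusted p = 0.737), and -0.11 without hypoxic pool 1. The other 3 form voltage-gated channels of other families and were dim: Kcnd1, an A-type channel gene, differed by 0.14, and the delayed rectifier genes Kcna2 and Kcna5 by 0.17 and 0.23. Without normoxic pool 4 the last 2 were 0.010 and 0.012, and without normoxic pool 2 Kcnd1 was -0.0073. In Kcna5, normoxic pool 4 read 52.4, which is below the highest bacterial control value of 83.5, and in Kcna2 it read 65.8.

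The pore genes of the ATP-sensitive potassium channel, which links membrane potential to metabolism, are Kcnj8 and Kcnj11. Kcnj8 read 339.5, 307, 311 and 366 in normoxic pools 1 to 4 and 322, 296, 275 and 229 in hypoxic pools 1 to 4. Hypoxic pools 2 to 4 lay below all normoxic pools, and hypoxic pool 1 lay among them. Its log2 difference was -0.23 with an interval from -0.52 to 0.05 (limma, adjusted p = 0.664), and -0.14 without hypoxic pool 4. Kcnj11 read 136 ± 12.7 and 139 ± 29.2 (n = 4 pools each), a log2 difference of 0.01, and its second probe set differed by -0.09. Abcc9, a regulatory subunit that pairs with them, differed by 0.04.

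**Figure D3:**
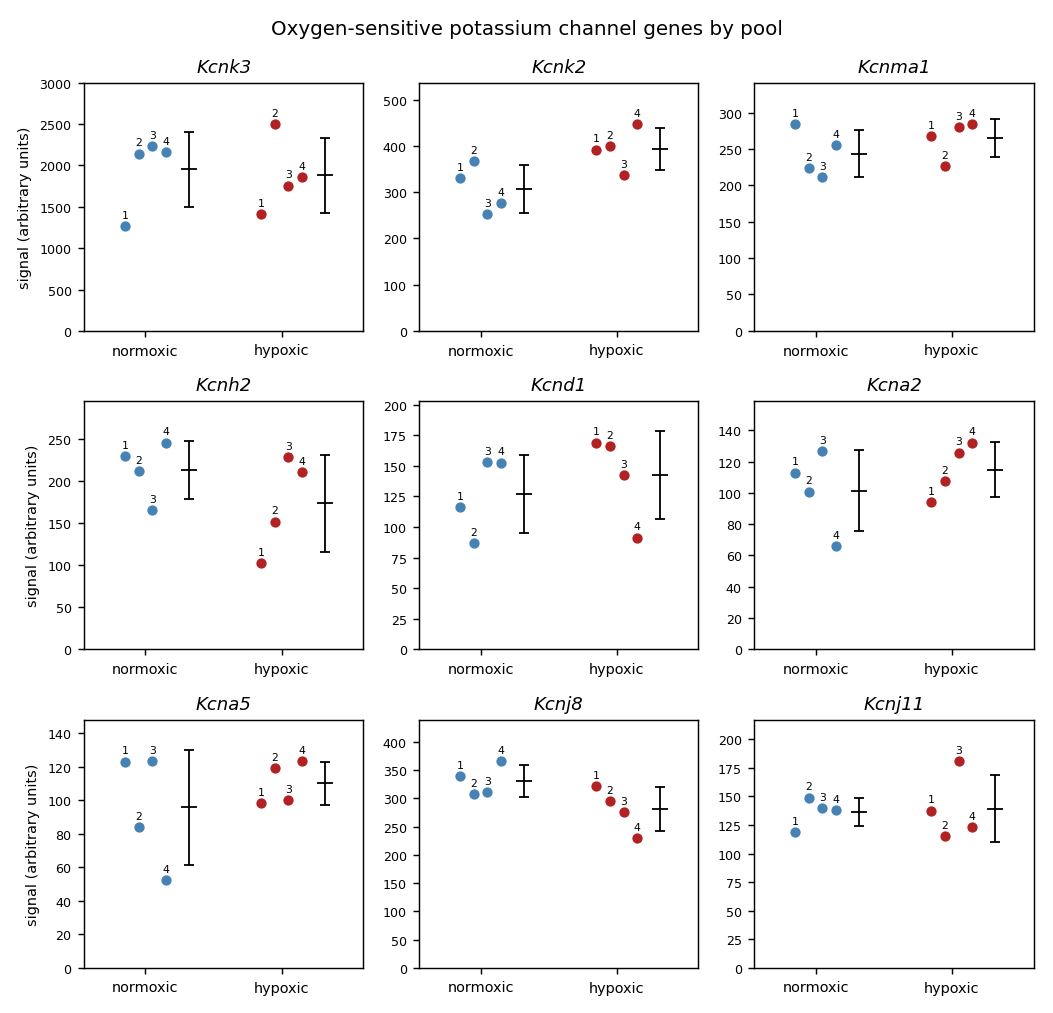
Signal in arbitrary units (vertical axes, from 0) of the 9 measured oxygen-sensitive potassium channel genes in each pool, blue for normoxic and red for hypoxic, numbered by replicate, with the mean and SD of 4 pools in black beside each group. The groups overlap in all 9 genes, and in Kcnk2 the overlap is between normoxic pool 2 (368) and hypoxic pool 3 (336).

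Among the remaining voltage-gated potassium channel genes, only Kcnh1 had groups that did not overlap, as did 5.39% of all probe sets. Kcnh1, an ether-a-go-go channel gene found in neurons and in dividing cells, read 295, 322, 282 and 299.6 in normoxic pools 1 to 4. It read 331, 338, 377 and 494 in hypoxic pools 1 to 4. All hypoxic pools lay above all normoxic ones, and hypoxic pool 4 was the highest. This gave a log2 difference of 0.33, standard error 0.14 (limma, adjusted p = 0.527), or 0.21 without hypoxic pool 4. Kcnc2, a fast delayed rectifier gene, read 106.5, 131, 182.5 and 112.5 in normoxic and 96.7, 96.3, 117 and 43.2 in hypoxic pools. The log2 difference was -0.55 (95% interval -1.11 to 0.01; limma, adjusted p = 0.582), and hypoxic pool 4 read below the highest bacterial control, without which the difference was -0.30. Its relative Kcnc4 differed by 0.25, and the modifier subunit gene Kcng2 by 0.25 at its brightest and -0.20 at its second probe set. Kcng2 was 0.0088 with the Gapdh ratio as a covariate and 0.11 without normoxic pool 4, and Kcnc4 was 0.12 without hypoxic pool 4. Kcnh3, at 458 ± 73.1 and 402 ± 67.7 (n = 4 pools each), differed by -0.18, and by -0.088 without hypoxic pool 1. Kcnq3, an M-current channel gene, differed by 0.03 and Kcng3 by -0.05. Over the class, 7 of 11 tested genes were higher and 4 lower, 0 passing limma over all probe sets.

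Of 12 auxiliary subunit genes of potassium channels on the array 4 were tested, and 0 passed limma over all probe sets. All 4 were higher, beside 29 of 46 tested channel genes and 45.2% of all probe sets, with a median log2 difference of 0.16. Kcnab2, which binds voltage-gated channels in the cytoplasm, was higher by 0.23. Kcnmb4, which slows the large-conductance calcium-activated channel, was higher by 0.17, Kcne3 by 0.14 and Kcnab1 by 0.05. Kcnab2 was 0.14 without hypoxic pool 3 and Kcne3 0.049 without normoxic pool 4. Kcnmb4 was highest in hypoxic pool 2, at 532, and turned to -0.01 without normoxic pool 1, where it read 212 against 336 to 403 in the other normoxic pools. Kcnt1, the pore of a sodium-activated potassium channel, differed by -0.23, from 137 ± 24.4 to 117 ± 41.3 (n = 4 pools each), and by -0.10 without hypoxic pool 1.

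Inward rectifiers, which pass potassium best near rest, were close to 0 apart from Kcnj8. Of 7 tested genes 6 were higher, by 0.01 to 0.10: Kcnj4 by 0.06, Kcnj6 by 0.04, Kcnj15 by 0.09, Kcnj13 by 0.10 and Kcnj5 by 0.10, besides Kcnj11. Kcnj5, a channel gene of aldosterone-producing cells, read from 64.1 to 139.7 in normoxic and from 93.3 to 137 in hypoxic pools. Of the other tandem-pore genes, Kcnk6 differed by -0.01 and Kcnk13 by 0.24, or 0.14 without normoxic pool 1 or 4. Kcnk13 read 81.3 and 81.5 in normoxic pools 1 and 4, below the highest bacterial control, and 108 to 144 in the other 6 pools. The pacemaker channel genes Hcn2 and Hcn3 differed by 0.06 and 0.02.

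Scn3b, an auxiliary subunit of voltage-gated sodium channels that alters how they open and reach the membrane, gave the lowest p of all channel genes. It read 418, 476, 385 and 426 in normoxic pools 1 to 4. It read 586.5, 587, 579 and 503 in hypoxic pools 1 to 4. Every hypoxic pool lay above every normoxic pool, with the closest pair at 503 and 476. The means were 426 ± 37.4 and 564 ± 40.7 (SD, n = 4 pools each). The log2 difference was 0.39 with a standard error of 0.11 and a 95% interval from 0.16 to 0.63 (limma, unadjusted p = 0.00333, adjusted p = 0.251). The difference ran from 0.35 to 0.44 with 1 pool left out and from 0.30 to 0.43 over the other 11 settings. The exact permutation p was 0.0286, the smallest this design can give. Over the other settings tried the adjusted p ran from 0.205, with arrays centred on their medians, to 0.598, with the Gapdh ratio as a covariate.

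All 3 tested sodium channel pore genes had a log2 difference above 0 with an interval that included 0, and none was tested against Scn3b. Scn3a, a pore-forming gene of embryonic and neuroendocrine cells, read from 152 to 259.5 in normoxic and from 154 to 282.5 in hypoxic pools, a log2 difference of 0.09. Scn10a, best known from sensory neurons, differed by 0.22 (95% interval -0.15 to 0.60) and the subunit gene Scn4b by -0.06. Scn7a, an atypical sodium channel gene known from glia and muscle, read 1035, 1015, 625 and 596 in normoxic pools 1 to 4. It read 1077, 888, 697 and 705 in hypoxic pools 1 to 4. Pools 1 and 2 of each group were the high ones, and the group means, 818 ± 239.6 and 842 ± 179.9, differed by 0.06 on the log2 scale (95% interval -0.37 to 0.50). The summed signal of 5 Schwann cell and glial markers was also highest in pool 1 of each group, at 2760 in normoxic and 2895 in hypoxic pool 1, and ran from 1914 to 2234.5 in the others. Pmp22, the brightest of these markers, and S100b were highest in pool 1 of each group, Pmp22 at 1616 in normoxic and 1749 in hypoxic pool 1. The other markers did not all follow. Within the normoxic group Gfap was lowest in pool 1, at 153, Mbp was highest in pool 2 and Sox10 in pool 1. Within the hypoxic group Gfap and Mbp were highest in pool 1 and Sox10 in pool 4. The part of these markers in the spread of Scn7a was not tested.

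Among calcium channel genes 3 of the 6 tested pore genes were higher and 3 lower, with a median log2 difference of -0.06. The 5 tested auxiliary genes had a median of -0.30, and neither group held a gene that passed. Cacna1d, the pore of an L-type channel that opens at low voltage and drives firing in chromaffin cells, read 420.4, 406, 411.5 and 411 in normoxic pools 1 to 4. It read 316, 328, 407 and 293 in hypoxic pools 1 to 4. The normoxic pools lay within a narrow band, hypoxic pool 3 lay inside it, and the other hypoxic pools lay lower. This gave a log2 difference of -0.29, standard error 0.12 (limma, adjusted p = 0.521), and -0.38 without hypoxic pool 3. Cacna2d1, the auxiliary subunit that carries L- and N-type channels to the membrane and binds gabapentin, read 1652, 1747, 1579 and 1476 in normoxic pools 1 to 4. Its hypoxic pools read 1644, 1455, 1254 and 979. The log2 difference was -0.30 (95% interval -0.61 to 0.01; limma, adjusted p = 0.606), and -0.16 without hypoxic pool 4. Cacna1b, the N-type pore, differed by -0.32, with hypoxic pool 4 at 76.3 and the other hypoxic pools from 120.1 to 162, and by -0.14 without hypoxic pool 4.

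Other calcium channel genes went both ways. Cacna1a, the P/Q-type pore that supports transmitter release, read from 159 to 182 in normoxic and from 188 to 227 in hypoxic pools. These groups did not overlap, although limma gave an unadjusted p of 0.0911 for the log2 difference of 0.23. Cacna1h, a T-type pore gene of the outer cortex and of immature chromaffin cells, read 174, 179, 262 and 523 in hypoxic pools 1 to 4 against 199.9 to 259 in normoxic pools. Its log2 difference of 0.18 had an interval from -0.43 to 0.79, hypoxic pool 4 being the highest. Cacna1c, the other L-type pore, differed by 0.04, and the T-type gene Cacna1i by -0.15. Cacng4, which modulates calcium channels and glutamate receptors, read 133, 147, 185 and 147 in normoxic pools and 93.5, 93.7, 137 and 133 in hypoxic pools (log2 -0.38; limma, unadjusted p = 0.0472, adjusted p = 0.570). All 5 auxiliary subunit genes were below 0 as deposited, but Cacnb2 and Cacnb3 only by -0.06 and -0.02, and with quantile normalization or median centring 4 of 5 were. Cacng2, a relative of Cacng4, differed by -0.30 and by -0.0092 without hypoxic pool 4; it read 49.4 in normoxic pool 1 and 51.3 in hypoxic pool 4.

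**Figure D4:**
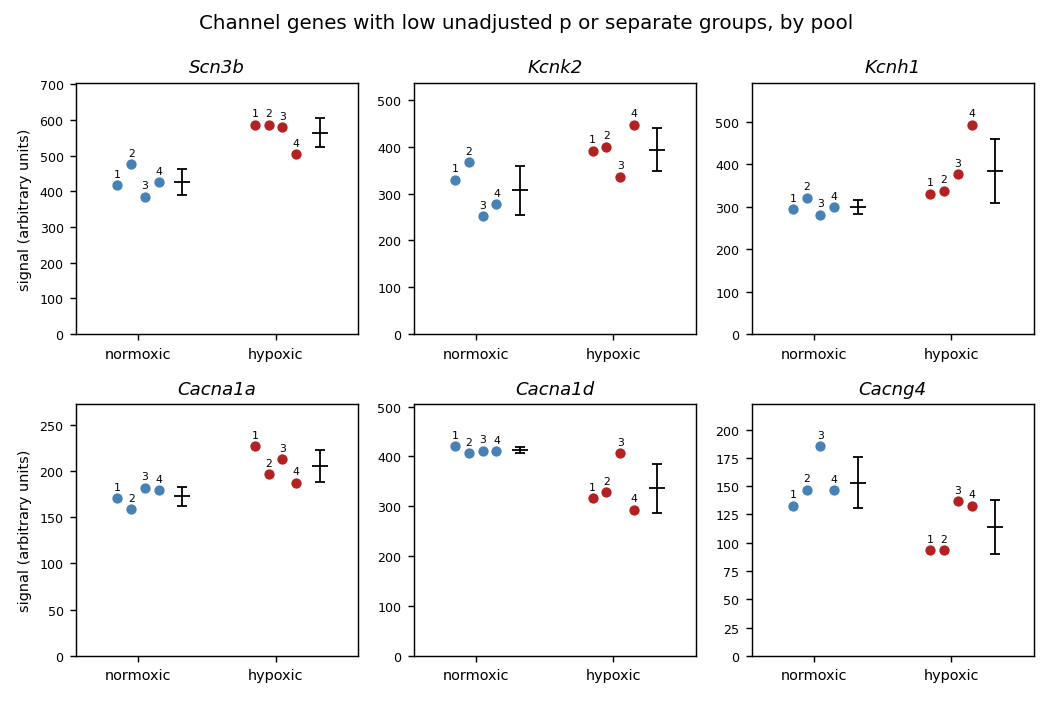
Signal in arbitrary units (vertical axes, from 0) of 6 channel genes in each pool, numbered by replicate, blue for normoxic and red for hypoxic, with the mean and SD of 4 pools in black: the 5 with an unadjusted p under 0.05 and Cacna1a, whose groups do not overlap. Hypoxic pools lie above all normoxic pools for Scn3b, Kcnh1 and Cacna1a, and 1 or more pools overlap for Kcnk2, Cacna1d and Cacng4.

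Many channel genes were too dim to compare. The array's controls for bacterial genes, absent from rat, reached 83.5 in a single pool, with a 95th percentile of 46.7. Of the 47 measured genes, 36 read above 83.5 in all 8 pools and 11 did not. Of the 65 genes below the line, 36 had a mean below that percentile, and 0 read above 83.5 in all pools. They include 8 of the oxygen-sensitive list: Kcnk9, the tandem-pore partner of Kcnk3 in outer cortex, read from 51.7 to 84.3, and Kcnk1, Kcnk5, Kcnd2, Kcnd3, Kcnc1, Kcns3 and Kcnn3 had means from 43.7 to 97.2. Scn9a, a pore gene of sympathetic neurons, had a mean of 70.6. The skeletal muscle channel genes Scn4a, Cacng1 and Cacna1s had means of 37.4, 24.7 and 8.0. Of the 65, only Kcnd2 passed the brightness filter, and its log2 difference was -0.17 (limma, adjusted p = 0.852).

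A list of genes that act beside the channels held nicotinic receptors, ion pumps and exchangers, calcium release channels and other cation and chloride channels. Of 49 genes, 44 were on the array and 26 were tested, and 0 passed limma over all probe sets. At an unadjusted p under 0.05 in limma there were 3 of 26, beside 8.64% of all probe sets. Orai1, the pore of store-operated calcium entry, read 423 ± 81.6 in normoxic and 317 ± 41.7 in hypoxic pools (n = 4 pools each). Its groups did not overlap, and the log2 difference was -0.39. The calcium release channel gene Itpr1 differed by 0.29, the plasma membrane calcium pump gene Atp2b1 by 0.30, and the sodium pump subunit gene Atp1b1 by 0.18. The adjusted p of these 4 ran from 0.479 to 0.598. As deposited 11 were higher and 15 lower, and after median centring 14 were higher and 12 lower.

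Markers of the cells that carry such channels were read beside these values. All 11 chromaffin markers on the array were higher in hypoxic pools as deposited, at a median log2 difference of 0.13, with 0 passing limma over all probe sets. At an unadjusted p under 0.05 in limma there were 4 of 11, beside 8.64% of all probe sets: Dbh (0.52), Ddc (0.36), Chga (0.34) and Slc18a1 (0.25). Groups did not overlap for Ddc only, beside 5.39% of all probe sets. The summed signal of the 11 markers ran from 38820.5 to 50753 in normoxic and from 44233 to 60365 in hypoxic pools. Among 7 markers of sympathetic neurons 6 were higher, with a median of 0.34, and the heavy neurofilament gene Nefh passed at 1.23 (limma, adjusted p = 0.0325). That call ended without any 1 of 7 single pools (only leaving out hypoxic pool 1 kept it), the adjusted p running from 0.0217 to 0.142 with 1 pool left out. It also ended with no brightness filter (0.0856), no variance trend (0.0770), the Gapdh ratio (0.124) and the replicate block (0.0522). Their sum ran from 2141 to 3021 in normoxic and from 2766 to 3821 in hypoxic pools. Both lists lie on the side of Scn3b, Kcnk2 and Kcnh1. They lie opposite to Cacna1d (-0.29) and Cacng4 (-0.38), the other channel genes at an unadjusted p under 0.05 in limma. The part of both lists in the channel values was not tested. The log2 differences of all 5 fat markers were below 0, the median being -0.64 and 0 passing; Ucp1, the uncoupling protein of brown fat, differed by -1.46 (limma, adjusted p = 0.502). Their sum spread from 2958 to 10144 in normoxic and from 1682 to 6892 in hypoxic pools, and its part in the channel values was not tested. The 8 cortex markers had a median difference of 0.02. All 4 heart muscle markers and 5 of 6 skeletal muscle markers lay below the highest bacterial control on average. Of 3 endothelial, 4 tested smooth muscle and 3 erythroid markers 0 passed, with medians of -0.05, -0.08 and 0.42. The endothelial gene Pecam1 differed by -0.53 with no overlap between groups (limma, unadjusted p = 0.0027, adjusted p = 0.238), and the erythroid genes Alas2 and Slc4a1 by 0.42 and 0.65 (adjusted p = 0.343 and 0.469). Of 5 kidney markers 4 lay below the highest bacterial control. None of these marker genes was listed at 0 in any pool.

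Normoxic pool 1 stood apart for the channel genes. It held the lowest of the 8 values for 13 of 46 genes (28.3%) and the highest for 1 (2.17%). Over all probe sets it held the lowest for 10.6% and the highest for 11.7%. Hypoxic pool 4, whose array had the lowest median signal, 228.6 against 237.6 to 249.2, held the lowest value for 8 of 46 (17.4%, beside 18.2% of all probe sets). Hypoxic pool 3 held the highest value for 9 (19.6%, beside 13.6% of all probe sets) and the lowest for 0 (beside 13.0%).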

How the data were processed

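Pools of rat adrenal glands (4 hypoxic, 4 normoxic) were labelled as biotin cRNA and read on 1-colour oligonucleotide arrays, per the labels' protocols. The deposited values are linear probe set intensities in arbitrary units; no source used here names the software that summarised probes. The trimmed mean (2% at each end) was 500.1 on every array, so the authors' intensities had been scaled to a common mean, which hides a change shared by most transcripts. Values were floored at 1 and taken as log2(value + 16); fold changes of dim probe sets are understated on this scale. Array medians lay within 0.117 log2, under a limit of 0.2, so no further normalization was done.

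Control probe sets were left out, and probe sets below the 30th percentile of mean log2 (a signal of 95.2) were not tested. limma 3.58.1 in R 4.3.3 (lmFit, eBayes with a variance trend, two-sided) was fitted on 11106 probe sets with Benjamini-Hochberg adjustment and a threshold of 0.05, and the steps were tested on simulated data. Python 3.11.15, pandas 2.3.3 and matplotlib 3.10.9 made tables and plots. The number of arrays limits precision. Gene names came from the platform annotation, and all 112 symbols matched RefSeq (GRCr8). RefSeq promoter windows came from the same build. Each gene stands for its probe set with the highest mean. Named genes were the measured oxygen-sensitive list, the 8 largest differences in each direction and the 2 brightest of each role. Also named were any gene past the threshold and any whose tested probe sets disagreed in sign with an unadjusted limma p under 0.05. There was none of either, but only 6 of the 35 other probe sets of measured genes were tested. Of the excitability list the 4 with the lowest p were named. The remaining measured genes are given by their difference only, and Cacna1h, Kcnj5, the genes below the line and Abcc9 were named after their values were seen. The members and lists were chosen with earlier results of these data known.

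Alternatives were offsets of 1 and 64, no filter, a filter at the 50th percentile, no trend, quantile normalization, median centring, probe sets averaged per gene, the replicate number as a block, Gapdh or beta-actin ratios as covariates, and leaving out each pool. Same-numbered pools did not deviate together in every pair, so they were not treated as pairs. The beta-actin ratio did rank the pools in the same order by number in both groups, lowest in pool 1 and highest in pool 3. The Gapdh ratio did not. With the replicate number as a block, the standard error of Kcnk3 at its brightest probe set was 0.12, in place of 0.20. Whether same-numbered pools were handled together is not stated.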

Additional observations from a re-analysis of the deposited data

Results flagged for a closer look

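In 2 of the 68 groups of 4 pools looked at, for 34 named genes, 1 pool lay far from the others by the gap to its nearest neighbour over the group's range (above Dixon's 95% critical value). Chance flags about 1 in 20 such groups. Kcnk3 read 1267 in normoxic pool 1, with the other normoxic pools from 2143 to 2235. Scn3b read 503 in hypoxic pool 4, with the other hypoxic pools from 579 to 587, and without that pool its log2 difference was 0.44.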

How the results depend on the processing

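The count of 0 channel genes past the threshold, and of 0 neighbouring genes, held in all 19 settings tried. The median over channel genes ran from -0.02 to 0.10 with 1 pool left out and from 0.01 to 0.09 otherwise. The 5 genes at an unadjusted p under 0.05 became 3 with either the Gapdh or the beta-actin ratio as a covariate, and 1 to 6 with 1 pool left out (1 without normoxic pool 3 or 4, 2 without hypoxic pool 4 and 3 without hypoxic pool 2). The median of the oxygen-sensitive list was 0.034 with the filter at the 50th percentile and ran from 0.013 to 0.11 with 1 pool left out. Over all probe sets the count of 20 was 0 with no filter, with no variance trend and with the Gapdh ratio, 37 with the beta-actin ratio, and 0 to 31 with 1 pool left out (0 without hypoxic pool 2 or 3 and without any of normoxic pools 1 to 3); the cause was not tested. Of 34 named genes 22 kept their sign in every setting run. With the Gapdh ratio the difference of Kcnk3 was 0.011, Kcnj11 -0.073, Scn7a -0.14 and Hcn3 -0.18. With the beta-actin ratio, chosen after seeing the data, Kcnk3 was 0.12, Cacng2 0.011, Cacna1c -0.0051 and Scn7a -0.13. With probe sets averaged Kcnj11 was -0.039.

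With 1 pool left out the sign also turned, within ranges of -0.24 to 0.080 for Kcnk3, -0.11 to 0.089 for Kcnj11, -0.029 to 0.13 for Hcn2, -0.12 to 0.16 for Hcn3, -0.013 to 0.28 for Kcnmb4, -0.060 to 0.21 for Kcnj4, -0.0073 to 0.32 for Kcnd1, -0.043 to 0.23 for Scn3a, -0.069 to 0.19 for Scn7a, -0.038 to 0.12 for Cacna1c and -0.18 to 0.087 for Scn4b. With the replicate number as a block the count over all probe sets was 18, and the channel genes called stayed at 0. In that fit 7 had an unadjusted limma p under 0.05. Correlations of same-numbered pools' deviations ran from -0.04 to 0.32. For 2 of the 4 normoxic pools the best match among the hypoxic pools had the same number.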
